A study of Mus musculus with 8 samples.

Results

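The 40 genes described here encode the amino acid branch of the integrated stress response and its enzymes and transporters, and were chosen by symbol from a list of named genes, out of 19805 gene symbols in the deposited tables. All 40 were in the ILC2 table and 39 in the CD8 T cell table, where Nupr1 was not listed. When amino acids run short, the kinase GCN2 phosphorylates the initiation factor eIF2, general translation falls, and the mRNA of the transcription factor ATF4 is translated more efficiently. ATF4 dimerises with C/EBP proteins and activates genes for amino acid uptake, for the synthesis of asparagine, serine, glycine and proline, for the mitochondrial folate cycle and for feedback inhibitors of the pathway. In activated T cells serine and one-carbon metabolism supplies purines, thymidylate and glutathione during proliferation. ATF4 is controlled largely by translation, so the level of its mRNA is not the level of its activity.

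RNA was measured by bulk sequencing in wild-type mouse primary cells in 4 groups of 2 libraries: group 2 innate lymphoid cells (ILC2s, lymphocytes without rearranged antigen receptors) of the lung and spleen CD8 T cells, each after 3 days of co-culture at 5 CD8 T cells to 1 ILC2, or after culture alone. After culture each population was isolated by flow cytometry. The sources used here do not give mouse ages, the culture medium or the sort gates, nor whether the 2 libraries of a group came from separate mice or cultures, so the p-values measure the spread between these libraries, which may be technical. Library totals ran from 48072595 to 67076905 counts, and levels are given as CPM (counts scaled to a library total of 1000000). Groups are called by their labels, although the markers of other cells differed between the ILC2 groups. The ILC2 markers summed to 13212 and 13031 CPM in the co-cultured ILC2 libraries, against 5589 and 5565 CPM in the ILC2 libraries labelled alone. Of these 22 markers 19 rose, Hs3st1 fell, and Thy1 and Il17rb did not pass (log2 changes from -0.53 to 2.62). CD8 T cell markers (12 of 12 in the table) summed to 167 and 198 CPM co-cultured and 1566 and 1519 CPM alone, stroma markers (9 of 11 in the table) to 115 and 119 CPM co-cultured and 8012 and 8712 CPM alone, and macrophage markers (5 of 12) to 17 and 21.1 CPM co-cultured and 313 and 319 CPM alone. Of these 26 genes only Lum was higher in the co-cultured ILC2 libraries, and Gzmk did not pass. Itgam, Mrc1, Fcgr1, C1qa, C1qb, C1qc, Marco, Col3a1 and Pdgfra were not in the ILC2 table. Epithelium markers (5 of 5 in the table) summed to 78.7 and 82.7 CPM co-cultured and 326 and 333 CPM alone, mast cell and granulocyte markers (3 of 6) to 26.2 and 26.7 CPM co-cultured and 174 and 145 CPM alone, and CD4 T cell markers (3 of 3) to 3.07 and 3.29 CPM co-cultured and 23.8 and 18.9 CPM alone, and all of these genes were lower. B cell markers (5 of 5) summed to 64 and 66.3 CPM co-cultured and 78.3 and 75.3 CPM alone. Of these 1 rose, 1 fell and 3 did not pass. Dendritic cell markers (4 of 5) summed to 33.2 and 32.5 CPM co-cultured and 47.4 and 55.2 CPM alone. Among them 1 rose, 2 fell and 1 did not pass. The part of all these markers in the ILC2 results was not tested. In the CD8 T cell libraries the CD8 T cell markers summed to 7228 and 7127 CPM co-cultured and 5310.1 and 5526 CPM alone, the ILC2 markers, some of which T cells also express, to 1851 and 1898 CPM co-cultured and 1626 and 1641 CPM alone, the stroma markers (3 of 11 in the table) to 2.51 and 2.74 CPM co-cultured and 3.28 and 2.82 CPM alone, and the macrophage markers (5 of 12 in the table) to 32.6 and 30.9 CPM co-cultured and 19.3 and 17.8 CPM alone. Of 18 ILC2 markers tested 10 fell and 6 rose (median log2 change -0.41), Kit, Rora and Il7r among those that rose, and of 4 macrophage markers tested Cd68 rose while Lyz2 and Csf1r fell (median -1.39). In CD8 T cells epithelium markers (3 of 5) summed to 34.2 and 33.6 CPM co-cultured and 17.2 and 18 CPM alone. Epcam rose, while Krt18 and Cdh1 fell. CD4 T cell markers (3 of 3) summed to 10.8 and 10.1 CPM co-cultured and 2.53 and 2.75 CPM alone. Cd4 rose, Cd40lg fell and Foxp3 did not pass. Dendritic cell markers (4 of 5) in CD8 T cells summed to 16.7 and 19.6 CPM co-cultured and 10.8 and 10.2 CPM alone. Itgax rose, Zbtb46 fell, and Flt3 and Xcr1 did not pass. B cell markers (2 of 5) summed to 28.7 and 26.9 CPM co-cultured and 23 and 23.2 CPM alone, and neither Cd79a nor Cd79b passed. Cpa3, the 1 mast cell and granulocyte marker present, had 0.0151 and 0.0298 CPM co-cultured and 11.4 and 8.65 CPM alone. In bulk libraries a lower share of one cell type and less RNA of a gene per cell cannot be told apart.

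A known site of ATF4 is the C/EBP-ATF response element, and its core, TTNCATCA on either strand (the reverse complement is TGATGNAA), was looked for in the 250 bases before each transcript start that the RefSeq promoter table (GRCm38.p6) gives for a gene. The table gives some genes more than 1 start, and a gene was counted when any of its windows held the core. Promoter sequence was matched for 33 of the 40 genes, and 8 of them (24.2%) held the core, against 3.91% of 27025 genes with a promoter in the same table. The 8 were Asns, Atf3, Chac1, Got1, Nupr1, Pycr1, Slc7a11 and Vldlr. The list was drawn up from known ATF4 genes, so this share is a description of the list, and a match is not evidence of binding. The windows below are shown 5′ to 3′ on the strand of the gene, with the core in capitals, for 4 genes that were lower in both co-cultured cell types (Asns, Atf3, Chac1 and Slc7a11) and for 2 that were lower in CD8 T cells and higher in ILC2s (Got1 and Vldlr). The core is written in the same letters, TTGCATCA, in Atf3 and Chac1 as in Got1 and Vldlr. Slc7a11 carries it once in each orientation, and Asns in the reverse orientation. Windows that touch an annotated exon are cut to 30 bases.
Asns: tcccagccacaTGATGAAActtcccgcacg
Atf3: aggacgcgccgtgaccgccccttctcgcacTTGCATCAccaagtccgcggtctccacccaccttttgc
Chac1: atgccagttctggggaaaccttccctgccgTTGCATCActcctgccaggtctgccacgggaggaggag
Slc7a11: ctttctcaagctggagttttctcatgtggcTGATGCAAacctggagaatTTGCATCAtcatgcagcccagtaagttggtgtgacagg
Got1: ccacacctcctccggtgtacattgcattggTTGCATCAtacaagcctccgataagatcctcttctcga
Vldlr: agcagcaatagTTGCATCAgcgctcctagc

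These windows lie on GRCm38 at chr6:7693214-7693243, minus strand (Asns), chr1:191183406-191183473, minus strand (Atf3), chr2:119351019-119351086, plus strand (Chac1), chr3:50443623-50443709, minus strand (Slc7a11), chr19:43524670-43524737, minus strand (Got1), and chr19:27216809-27216838, plus strand (Vldlr). Distances are from the start used in the promoter table. The match of Asns begins 23 bases before it, those of Slc7a11 66 and 47 bases, Got1 102, Atf3 110, Chac1 193 and Vldlr 200 bases. The starts used for Slc7a11 and Vldlr lie inside the full span that RefSeq gives these genes, so both windows are within the gene and not before its outermost start. The full cAMP response element, TGACGTCA, which reads the same on both strands, was found in 1 of the 33 promoters (Ppp1r15a, 3.03%), against 1.77% of all genes.

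In CD8 T cells the pathway was lower in co-culture in nearly all of its parts. Of the 39 genes tested, 35 fell, 2 rose (Ppp1r15a and Mthfd1l) and 2 did not pass (Atf5 and Slc38a2), and 26 of those that fell did so at least 2-fold. Over all 15948 genes tested in these cells, 30.7% fell, 30.2% rose (60.9% together), 10.7% fell at least 2-fold and 9.61% rose at least 2-fold. The median log2 change of the 39 genes was -1.49, against -0.005 over all genes, where a log2 change is that of the libraries labelled co-cultured over those labelled alone and -1 means a fall by 2-fold. Summed over the genes, the level was 2997 and 2944 CPM in the co-cultured libraries and 7632 and 7009 CPM in the libraries cultured alone. A change passed the test at an edgeR quasi-likelihood p under 0.05 after Benjamini-Hochberg adjustment over all genes.

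Atf4 itself, on chromosome 15, had 128 and 121 CPM in the co-cultured libraries, against 389 and 328 CPM in the libraries cultured alone (log2 change -1.6, SE 0.084, edgeR adjusted p = 1.2e-08). Cebpg, which encodes a C/EBP partner of ATF4, stood at 26.1 and 30.7 CPM in the co-cultured libraries, against 55.9 and 46.9 CPM in the libraries cultured alone (log2 change -0.93, SE 0.1, edgeR adjusted p = 6.1e-06). In both genes each co-cultured library lay below each library cultured alone. Separate groups are given here and below as description only, since their share over all genes was not counted. Groups were also separate in some genes that did not pass, among them Slc38a2 in CD8 T cells and Aldh18a1 and Sesn2 in ILC2s. Atf3, a stress-induced member of the same leucine zipper family, had 16 and 15.4 CPM co-cultured and 103 and 84.8 CPM alone (log2 change -2.66, SE 0.1, edgeR adjusted p = 8.4e-10). Ddit3, which encodes the pro-apoptotic factor CHOP, moved less, with 20.6 and 19.7 CPM co-cultured and 28.6 and 26.2 CPM alone (log2 change -0.52, SE 0.095, edgeR adjusted p = 0.00035). Both of these genes again had groups that did not overlap. Atf5, a further ATF4-like factor, was near the floor of detection with 13 and 21 reads co-cultured and 10 and 22 alone, overlapped between the groups and did not pass (edgeR adjusted p = 0.66). Exons of Atf5 overlap Il4i1 and Nup62 on the opposite strand, and those of Ddit3 overlap Mars. Exons of Cebpg, Aldh1l2, Mthfd1 and Slc6a9 overlap other genes on the opposite strand as well. The strand setting of the counting is not given, so reads of these pairs cannot be told apart and the values are uncertain.

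The feedback and effector genes held the strongest fall of the 39. Chac1, whose product degrades glutathione, had 1.41 and 2 CPM in the co-cultured libraries, against 28 and 26.9 CPM in the libraries cultured alone (log2 change -4.09, SE 0.16, edgeR adjusted p = 1.2e-09). Stc2, the gene of the secreted glycoprotein stanniocalcin 2, had 4.34 and 4.2 CPM co-cultured and 59.9 and 56.6 CPM alone (log2 change -3.85, SE 0.099, edgeR adjusted p = 3.5e-11). Trib3, a pseudokinase gene whose product binds ATF4 and dampens it, had 13.6 and 15.1 CPM co-cultured and 83.8 and 71.1 CPM alone (log2 change -2.51, SE 0.1, edgeR adjusted p = 1.4e-09). All 3 genes were far apart between the groups relative to the spread of the libraries. Sesn2, encoding a leucine sensor that restrains the growth kinase complex mTORC1, had 12.5 and 12.6 CPM co-cultured and 29.98 and 30.1 CPM alone (log2 change -1.34, SE 0.097, edgeR adjusted p = 1.4e-07). Eif4ebp1, encoding a repressor of cap-dependent translation, had 109 and 109 CPM co-cultured and 249.7 and 231 CPM alone (log2 change -1.22, SE 0.071, edgeR adjusted p = 2.6e-08). Vldlr, a lipoprotein receptor gene that ATF4 activates, had 29.2 and 29.3 CPM co-cultured and 53.8 and 59 CPM alone (log2 change -1.03, SE 0.085, edgeR adjusted p = 4e-07). None of these pairs of groups overlapped either. Ddit4, an mTORC1 inhibitor gene, had 34.5 and 35.7 CPM co-cultured and 44.1 and 46.6 CPM alone and fell by 0.45 on the log2 scale (SE 0.083).

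Ppp1r15a, encoding GADD34, which directs the phosphatase that reverses eIF2 phosphorylation, was the exception in this branch. It had 80.7 and 70.6 CPM in the co-cultured libraries, against 58.1 and 55.4 CPM in the libraries cultured alone (log2 change 0.33, SE 0.083, edgeR adjusted p = 0.0035). The co-cultured libraries lay above the others, but without co-cultured replicate 1 the call ended (log2 change 0.24, edgeR adjusted p = 0.059, and adjusted p from 0.00091 to 0.059 over 12 alternatives). Its exons overlap Tulp2 on the opposite strand. Over the 13 transcription factor and effector genes tested, 11 fell, 1 rose and 1 missed the threshold (branch median -1.22 on the log2 scale).

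Serine is made from the glycolytic intermediate phosphoglycerate by the enzymes of Phgdh, Psat1 and Psph, in this order, and all of them fell in co-cultured CD8 T cells. Phgdh had 224 and 208 CPM in the co-cultured libraries, against 929 and 841 CPM in the libraries cultured alone (log2 change -2.12, SE 0.076, edgeR adjusted p = 5.7e-10). Psat1 stood at 188 and 187 CPM co-cultured and 550.2 and 512 CPM alone (log2 change -1.58, SE 0.07, edgeR adjusted p = 3.1e-09). Psph, the phosphatase gene of the last step, had 68 and 61.7 CPM co-cultured and 222 and 184 CPM alone (log2 change -1.72, SE 0.092, edgeR adjusted p = 1.4e-08). In each the 2 groups were separate, with the larger spread among the libraries cultured alone. The serine hydroxymethyltransferases, which pass a carbon from serine to folate, followed. Shmt2, the mitochondrial form, had 164 and 158 CPM co-cultured and 632 and 550.3 CPM alone (log2 change -1.96, SE 0.079, edgeR adjusted p = 1.5e-09). Shmt1, the cytosolic form, had 23.9 and 22.2 CPM co-cultured and 97.8 and 76.7 CPM alone (log2 change -2.0, SE 0.11, edgeR adjusted p = 1.4e-08). Phgdh has an annotated processed pseudogene, and exons of Psph, Shmt1 and Shmt2 overlap Cct6a, Smcr8 and Ndufa4l2 on the opposite strand, which leaves their exact counts uncertain.

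The folate enzymes further down split by gene. Mthfd2, the mitochondrial dehydrogenase and cyclohydrolase, had 147 and 147 CPM in the co-cultured libraries, against 401 and 377 CPM in the libraries cultured alone (log2 change -1.49, SE 0.069, edgeR adjusted p = 4.6e-09). Aldh1l2, the mitochondrial formyltetrahydrofolate dehydrogenase, had 1.04 and 1.4 CPM co-cultured and 9.36 and 11 CPM alone (log2 change -3.13, SE 0.19, edgeR adjusted p = 4.3e-08). Mthfd1, the cytosolic enzyme with both activities, fell by 0.88 (SE 0.072) on the log2 scale. The groups of these 3 genes did not overlap. Mthfd1l, whose product releases formate from mitochondria, ran the other way with 212 and 223 CPM co-cultured and 172 and 186 CPM alone (log2 change 0.2, SE 0.074, edgeR adjusted p = 0.032). That rise did not pass without CD8 alone replicate 1 (log2 change 0.13), without co-cultured replicate 1 (0.24), without co-cultured replicate 2 (0.17) or in 1 fit of all 8 libraries (0.2), with edgeR adjusted p from 0.058 to 0.17 in these 4. Of the 9 serine and one-carbon genes 8 fell and 1 rose, 7 of them falling at least 2-fold, with a median log2 change of -1.72.

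Transsulfuration turns homocysteine and serine into cysteine through the enzymes of Cbs and Cth. Cth, the cystathionine lyase gene, had 40.9 and 37.9 CPM in the co-cultured libraries, against 304 and 275 CPM in the libraries cultured alone (log2 change -2.96, SE 0.081, edgeR adjusted p = 6.8e-11). Cbs was low, with 75 and 48 reads co-cultured and 97 and 85 alone (log2 change -0.93, SE 0.29, edgeR adjusted p = 0.016). The Cbs call ended without CD8 alone replicate 1 (edgeR adjusted p = 0.099) and without co-cultured replicate 2 (0.091), in a range of adjusted p from 0.0026 to 0.099 over 12 alternatives.

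Asns, on chromosome 6 at 7675165 to 7693209 of GRCm38, encodes asparagine synthetase, a classical ATF4 target. It had 58.7 and 62.8 CPM in the co-cultured libraries, against 693 and 629 CPM in the libraries cultured alone (log2 change -3.52, SE 0.081, edgeR adjusted p = 1.4e-11), and its change kept to between -3.58 and -3.44 over 12 alternatives. Of the proline enzymes, Pycr1, which catalyses the last step, had 17.9 and 16.8 CPM co-cultured and 57.5 and 57.8 CPM alone (log2 change -1.81, SE 0.085, edgeR adjusted p = 4.9e-09). Aldh18a1, which catalyses the entry step, moved less and fell by 0.56 (SE 0.072). Gpt2, the mitochondrial alanine transaminase gene, had 14 and 13.2 CPM co-cultured and 47 and 39.6 CPM alone (log2 change -1.75, SE 0.1, edgeR adjusted p = 2.9e-08). The groups of all 4 genes were separate. Got1, the cytosolic aspartate transaminase gene, had 145 and 143 CPM co-cultured and 160.5 and 159.9 CPM alone, a small fall (log2 change -0.23, SE 0.068, edgeR adjusted p = 0.0093) that did not pass when libraries were scaled by their totals (log2 change -0.15) or without co-cultured replicate 1 (-0.24) or 2 (-0.22), with adjusted p from 0.006 to 0.081 over 12 alternatives.

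Of the 10 amino acid transporter genes 9 fell and 1 missed the threshold (branch median -1.33 on the log2 scale). Slc7a5 and Slc3a2 encode the chains of the carrier that brings leucine and other large neutral amino acids into activated T cells. Slc7a5 had 42.9 and 47.7 CPM in the co-cultured libraries, against 227 and 203 CPM in the libraries cultured alone (log2 change -2.33, SE 0.085, edgeR adjusted p = 7e-10). Slc3a2 had 205 and 198 CPM co-cultured and 463 and 427 CPM alone (log2 change -1.22, SE 0.071, edgeR adjusted p = 2.6e-08). Both chains fell, with separate groups. Slc7a3, a carrier of arginine and lysine, had 11.4 and 8.29 CPM co-cultured and 119 and 104 CPM alone (log2 change -3.58, SE 0.13, edgeR adjusted p = 5.7e-10). Slc7a1, of the same cationic family, had 66.3 and 77 CPM co-cultured and 140.4 and 134 CPM alone (log2 change -1.02, SE 0.084, edgeR adjusted p = 4.2e-07). Slc1a4, a carrier of alanine, serine and cysteine, had 7.93 and 8.97 CPM co-cultured and 20.9 and 22.7 CPM alone (log2 change -1.45, SE 0.12, edgeR adjusted p = 4.1e-07). None of these 3 genes had overlapping groups.

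The other transporter genes were either low or little changed. Slc7a11, which encodes the cystine-glutamate exchanger, had 0.514 and 0.268 CPM in the co-cultured libraries (34 and 18 reads) and 5.98 and 4.43 CPM in those cultured alone (log2 change -3.81, SE 0.29). Slc6a9, a glycine transporter gene, had 0.68 and 1.01 CPM co-cultured and 10.2 and 9.2 CPM alone (log2 change -3.59, SE 0.21). Both were low in these cells, and the groups were apart. Slc1a5, a glutamine carrier gene, fell by 0.55 (SE 0.071) and Slc38a1, of the same substrate, by 0.35 (SE 0.073) on the log2 scale. Slc38a2, the adaptive neutral amino acid carrier gene, had 99.2 and 99.1 CPM co-cultured and 106 and 102 CPM alone and did not pass (log2 change -0.15, edgeR adjusted p = 0.073).

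**Figure D1:**
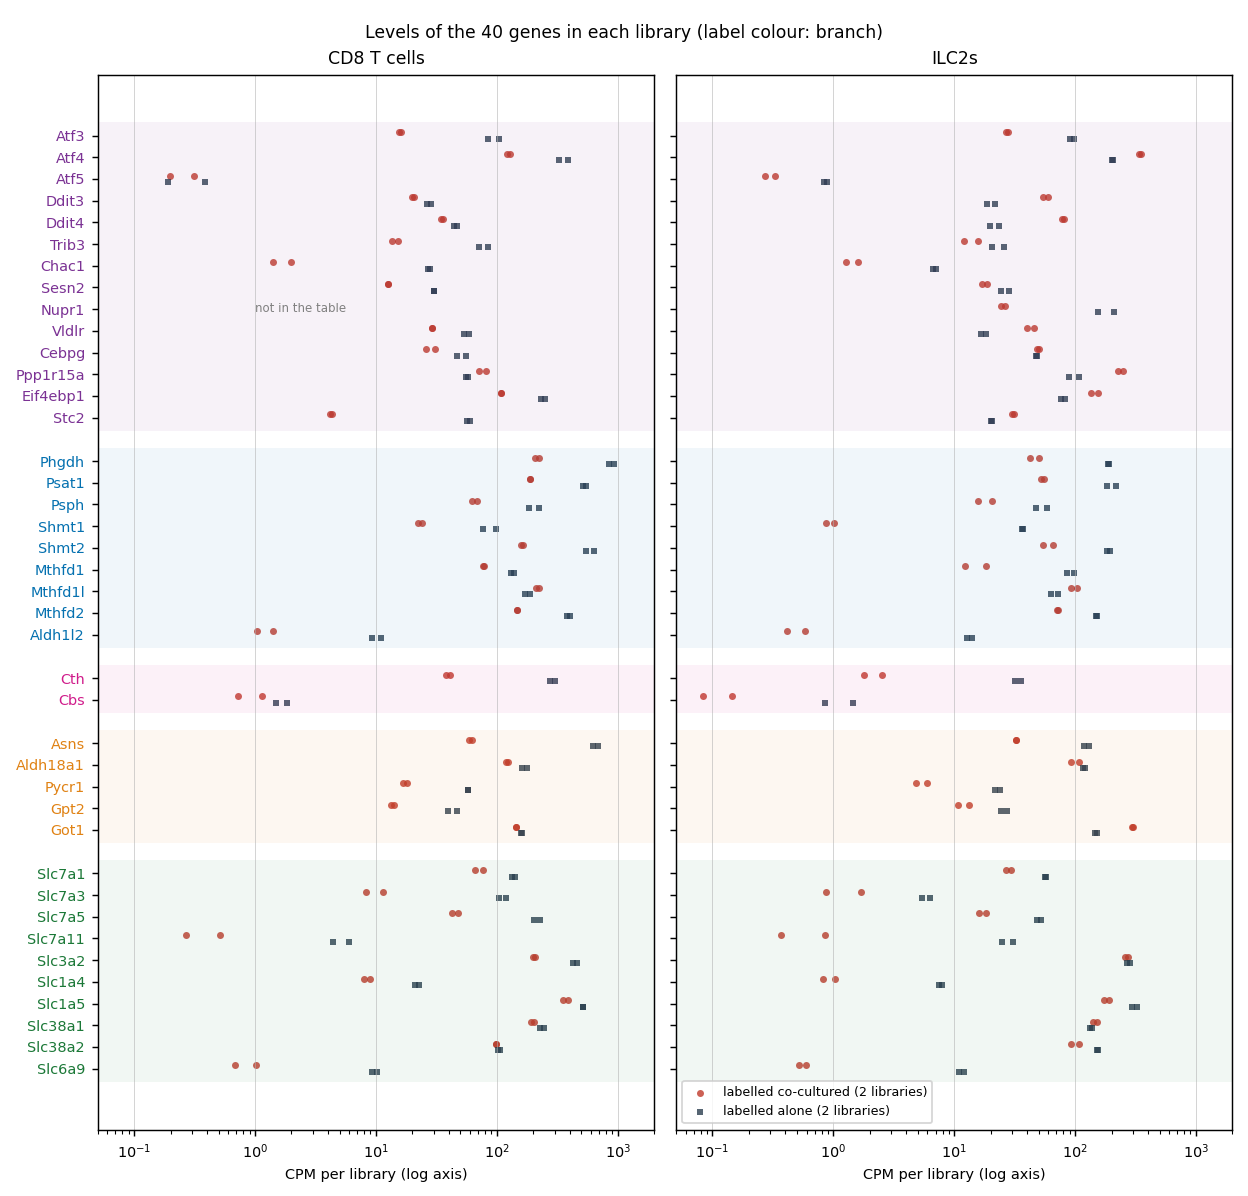
Level of each of the 40 genes in CPM (log axis) in every library of CD8 T cells (left) and ILC2s (right), with circles for the 2 co-cultured libraries and squares for the 2 libraries labelled alone. Label colours mark the branches, from transcription factors and stress effectors at the top to transporters at the bottom. In CD8 T cells the circles lie left of the squares for most genes, while in ILC2s Atf4, Ddit3, Ddit4, Vldlr, Ppp1r15a and Got1 have circles to the right.

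In ILC2s most enzymes and transporters were lower in the co-cultured libraries (Got1, Mthfd1l and Slc38a1 were higher, and Aldh18a1 and Slc3a2 did not pass), but 7 of 14 genes of the transcription factor and effector branch were higher. Of the 40 genes, 26 fell, 10 rose and 4 did not pass (Sesn2, Cebpg, Aldh18a1 and Slc3a2). At least 2-fold changes were 20 falls and 6 rises. Over all 16739 genes tested, 34.4% fell, 31.8% rose (66.3% together), 22.7% fell at least 2-fold and 17.6% rose at least 2-fold. The median log2 change was -1.09, against -0.01 over all genes, and the summed level 2638 and 2624 CPM in the co-cultured libraries, against 3350.5 and 3343 CPM in those labelled alone. The stroma, macrophage, T cell, epithelium and mast cell and granulocyte markers given above were lower in the same libraries, and their part in these falls was not tested.

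The rises depend on how the libraries are scaled. Scaling to the summed counts of the 22 ILC2 markers, in place of TMM scaling over all genes, moved the median of all genes to -1.455 (under TMM, -0.01) and the share of rises among all calls to 4.28% (under TMM 48%, under library totals 38.3%). It left 1 of the 10 rises, that of Ddit4 (log2 change 0.65, edgeR adjusted p = 0.00056). Under that scaling Ddit3 (0.27), Vldlr (0.05) and Ppp1r15a (0.04) no longer passed, and the sign turned for Atf4 (-0.47), Eif4ebp1 (-0.36), Stc2 (-0.65), Mthfd1l (-0.71), Slc38a1 (-1.13) and Got1 (-0.24). All 26 falls kept their direction and passed under it. Marker scaling lowers the ILC2 changes of all genes alike, so the falls could only deepen, and this is no check of them. Marker scaling sets the summed ILC2 markers equal in all ILC2 libraries. Whether ILC2s held equal marker RNA per cell in both groups was not tested. Under TMM scaling the 22 markers had log2 changes from -0.53 to 2.62. In the following paragraphs log2 changes, SEs and adjusted p-values are under TMM scaling, unless another setting is named. CPM, and whether groups overlapped, are by library totals, as defined above. The direction of a small change can therefore differ between the CPM and the log2 change.

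Atf4 had 336 and 351 CPM in the co-cultured libraries, against 204 and 201 CPM in the libraries labelled alone (log2 change 0.98, SE 0.11, edgeR adjusted p = 1.2e-05). Ddit3 had 54.7 and 59.7 CPM co-cultured and 21.6 and 18.7 CPM alone (log2 change 1.72, SE 0.13, edgeR adjusted p = 4.6e-07). Ppp1r15a stood at 250.4 and 226 CPM co-cultured and 108 and 88.4 CPM alone (log2 change 1.5, SE 0.14, edgeR adjusted p = 2.1e-06). For these genes, the central factor, the CHOP gene and the phosphatase subunit gene, each co-cultured library was above each library labelled alone. Ddit4 had 81.2 and 78.1 CPM co-cultured and 19.7 and 23.4 CPM alone (log2 change 2.1, SE 0.14, edgeR adjusted p = 1.5e-07), the highest log2 change of the 40 genes. Vldlr had 45.6 and 40.2 CPM co-cultured and 18.4 and 16.8 CPM alone (log2 change 1.5, SE 0.14, edgeR adjusted p = 2.6e-06). Eif4ebp1 had 134 and 155 CPM co-cultured and 82.9 and 75.7 CPM alone (log2 change 1.08, SE 0.12, edgeR adjusted p = 1e-05). The groups of these 3 genes were separate too. Stc2 had 30.2 and 31.1 CPM co-cultured and 20.2 and 20.7 CPM alone, a rise of 0.8 (SE 0.13) on the log2 scale.

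Other genes of the branch fell in the same libraries. Nupr1, the gene of a small chromatin-associated stress protein, had 24.3 and 26.3 CPM in the co-cultured libraries, against 209 and 156 CPM in the libraries labelled alone (log2 change -2.64, SE 0.15, edgeR adjusted p = 5e-08). Atf3 had 26.8 and 27.9 CPM co-cultured and 90.9 and 98.4 CPM alone (log2 change -1.58, SE 0.13, edgeR adjusted p = 6e-07). Chac1 was lower too, with 1.61 and 1.27 CPM co-cultured and 6.64 and 7.06 CPM alone (log2 change -2.03, SE 0.24). Groups did not overlap in any of them. Trib3 fell by 0.53 (SE 0.17, edgeR adjusted p = 0.015), but not without ILC2 alone replicate 2 (edgeR adjusted p = 0.15) or without co-cultured replicate 1 (0.051). Atf5, with 16 and 13 reads co-cultured and 54 and 46 alone, fell by 1.29 (SE 0.44, edgeR adjusted p = 0.022), and this call ended without ILC2 alone replicate 1 (0.16), without ILC2 alone replicate 2 (0.12), without co-cultured replicate 2 (0.062) and with DESeq2 (0.13). Sesn2 had 18.7 and 16.9 CPM co-cultured and 24.6 and 28.3 CPM alone and missed the threshold (log2 change -0.36, edgeR adjusted p = 0.052), but passed as lower under 7 alternatives, among them the fit of all 8 libraries (edgeR adjusted p = 0.0017), with an adjusted p from 2.2e-07 to 0.29 over 13 alternatives. Cebpg, at 48.2 and 49.9 CPM co-cultured and 48.3 and 47.7 CPM alone, overlapped between the groups (log2 change 0.25, edgeR adjusted p = 0.091) and passed as higher where only genes at 1 CPM in 2 libraries were tested (edgeR adjusted p = 0.038), and as lower under scaling to ILC2 markers (log2 change -1.2, edgeR adjusted p = 1.3e-06), with adjusted p up to 0.82 over 13 alternatives.

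The serine pathway fell at each step, as 8 of the 9 serine and one-carbon genes did. Phgdh had 42.5 and 50.2 CPM in the co-cultured libraries, against 186 and 189 CPM in the libraries labelled alone (log2 change -1.8, SE 0.12, edgeR adjusted p = 1.8e-07). Psat1 had 52 and 55.1 CPM co-cultured and 185 and 217 CPM alone (log2 change -1.7, SE 0.13, edgeR adjusted p = 4.5e-07). Psph had 15.6 and 20.4 CPM co-cultured and 47.1 and 58.4 CPM alone (log2 change -1.34, SE 0.16, edgeR adjusted p = 1.6e-05). The order of the groups was the same in all 3 genes, with no overlap. Shmt1, the cytosolic hydroxymethyltransferase gene, had 1.01 and 0.874 CPM co-cultured and 37 and 36.4 CPM alone (log2 change -5.06, SE 0.18, edgeR adjusted p = 1e-09). Shmt2, its mitochondrial counterpart, had 54.7 and 65.9 CPM co-cultured and 185 and 196 CPM alone (log2 change -1.45, SE 0.13, edgeR adjusted p = 1.2e-06). Mthfd1 had 18.4 and 12.3 CPM co-cultured and 97.8 and 86.3 CPM alone (log2 change -2.36, SE 0.19, edgeR adjusted p = 7.5e-07). In these genes too the groups were separate. Aldh1l2 had 0.578 and 0.416 CPM co-cultured and 12.8 and 13.9 CPM alone (log2 change -4.53, SE 0.24, edgeR adjusted p = 2.5e-08). Mthfd2 fell by 0.86 (SE 0.12) and Mthfd1l rose by 0.75 (SE 0.13), with 103 and 92.6 CPM co-cultured and 72.3 and 63.5 CPM alone. The median log2 change of the branch was -1.7. Stroma markers summed to 115 and 119 CPM co-cultured, against 8012 and 8712 CPM alone, in the same libraries.

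Both transsulfuration genes fell. Cth had 1.79 and 2.52 CPM in the co-cultured libraries, against 31.8 and 35.4 CPM in the libraries labelled alone (log2 change -3.75, SE 0.18, edgeR adjusted p = 1.2e-08). Cbs had 7 and 4 reads co-cultured and 52 and 81 alone (log2 change -3.1, SE 0.55, edgeR adjusted p = 0.00039). Among the amino acid enzymes the direction differed by gene. Asns had 32.5 and 32.6 CPM co-cultured and 118 and 131 CPM alone (log2 change -1.72, SE 0.13, edgeR adjusted p = 3.4e-07). Pycr1 had 4.81 and 5.97 CPM co-cultured and 21.7 and 23.8 CPM alone (log2 change -1.87, SE 0.16, edgeR adjusted p = 1.2e-06). Gpt2 fell by 0.89 (SE 0.16) on the log2 scale. In contrast to these 3, Got1 rose, with 297 and 298 CPM co-cultured and 146 and 152 CPM alone (log2 change 1.21, SE 0.12, edgeR adjusted p = 2.7e-06). Each of these 4 genes had separate groups, as did Aldh18a1. Aldh18a1 did not pass (log2 change -0.03, SE 0.13, edgeR adjusted p = 0.84), and its sign turned under RLE scaling (0.00318).

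Of the 10 transporter genes 8 fell, 1 rose and 1 did not pass (median log2 change -1.08). Slc7a11 had 0.371 and 0.853 CPM co-cultured (18 and 41 reads) and 24.8 and 30.5 CPM alone (log2 change -5.28, SE 0.27, edgeR adjusted p = 2e-08), the lowest log2 change of the 40 genes. Slc6a9 had 0.598 and 0.52 CPM co-cultured and 10.9 and 12 CPM alone (log2 change -4.13, SE 0.23, edgeR adjusted p = 3.6e-08). Slc7a5, the leucine carrier chain, had 15.9 and 18.2 CPM co-cultured and 48.4 and 52.2 CPM alone (log2 change -1.35, SE 0.13, edgeR adjusted p = 3.4e-06). The groups of these 3 genes lay apart. Slc3a2, the partner chain of both Slc7a5 and Slc7a11, did not follow them, with 259 and 275 CPM co-cultured and 269.8 and 284 CPM alone (log2 change 0.16, SE 0.11, edgeR adjusted p = 0.23). Its groups overlapped, and its sign turned when libraries were scaled by their totals (log2 change -0.05). Slc1a4 (log2 change -2.83), Slc7a3 (-1.99), Slc7a1 (-0.81) and Slc1a5 (-0.55) were lower as well. Slc38a2 fell by 0.4 (edgeR adjusted p = 0.019, and not past the threshold without ILC2 alone replicate 2 or co-cultured replicate 2, with 0.055 and 0.11). Slc38a1 rose by 0.32 (edgeR adjusted p = 0.036), a call that ended with library totals (0.42), with no low-count filter (0.078), in the fit of all 8 libraries (0.14), without ILC2 alone replicate 1 (0.079), without ILC2 alone replicate 2 (0.14) and without co-cultured replicate 1 (0.23).

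**Figure D2:**
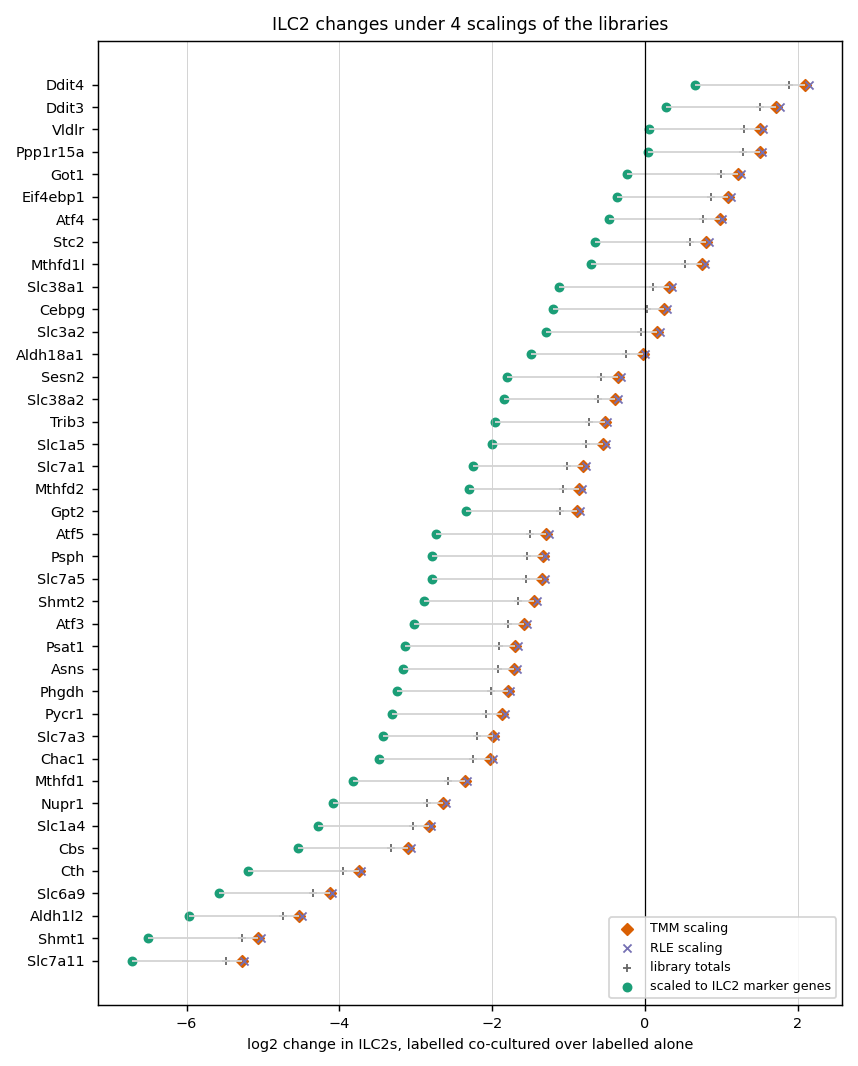
Log2 change of each of the 40 genes in ILC2s, labelled co-cultured over labelled alone, under TMM scaling (diamonds), RLE scaling (crosses), library totals (plus signs) and scaling to the summed ILC2 markers (circles). Marker scaling shifts the genes to the left, so that Ddit4 keeps a rise that passed and Slc7a11 and Shmt1 stay at the low end.

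Set side by side, most genes fell in both cell types, and some went opposite ways. Of the 39 genes tested in both, 23 fell in both, against 17.8% of the 14835 genes tested in both. A further 8 rose in ILC2s and fell in CD8 T cells, against 4.54% of genes. These were Atf4, Ddit3, Ddit4, Eif4ebp1, Stc2, Vldlr, Got1 and Slc38a1, 6 of them from the transcription factor and effector branch. Under scaling to ILC2 markers Ddit4 was the 1 gene of these that still passed as higher in ILC2s. Ppp1r15a and Mthfd1l rose in both under TMM scaling, against 16.9% of genes. None of the 39 rose in CD8 T cells and fell in ILC2s, against 6.33% of genes.

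Whether the changes differed was tested in 1 fit of the 8 libraries, as the change in ILC2s minus that in CD8 T cells. Scaling over all libraries shifts this difference from that of the separate fits, and its median over all genes was -0.121. Calls of small differences changed with the scaling. With RLE scaling Shmt2 passed (0.47, edgeR adjusted p = 0.012) and Slc38a2 did not (-0.278, edgeR adjusted p = 0.13). Under TMM scaling the difference passed for 30 of the 39 genes, 22 with a higher and 8 with a lower change in ILC2s. Over the 15532 genes tested, 21% and 32.6% passed in these directions (53.6% together). Stc2 differed most, with a log2 change of 0.8 in ILC2s, against -3.85 in CD8 T cells (difference 4.49, SE 0.16, edgeR adjusted p = 2.8e-12). For Atf4 the difference was 2.42 (SE 0.14, edgeR adjusted p = 6.1e-10), for Ddit4 2.39 and for Vldlr 2.37. Shmt1 led the other direction, with -5.06 in ILC2s, against -2.0 in CD8 T cells (difference -3.23, SE 0.21, edgeR adjusted p = 3.9e-09). The serine synthesis genes did not pass, with differences of 0.16 for Phgdh (SE 0.14), -0.27 for Psat1 (SE 0.14) and 0.22 for Psph (SE 0.19). For Psat1 the difference passed with library totals (-0.44, edgeR adjusted p = 0.013) and without ILC2 alone replicate 1 (-0.41, edgeR adjusted p = 0.02), and under marker scaling of the ILC2 libraries it passed for Phgdh (-1.15), Psat1 (-1.58) and Psph (-1.08). The ILC2 libraries were also scaled to ILC2 markers, a setting added after the values were seen. Under it 8 genes had a higher and 25 a lower change in ILC2s. That setting lowers the ILC2 changes of all genes alike, and the shares of all genes in these directions are not given here. Stc2 was then at 3.18 and Atf4 at 1.11.

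**Figure D3:**
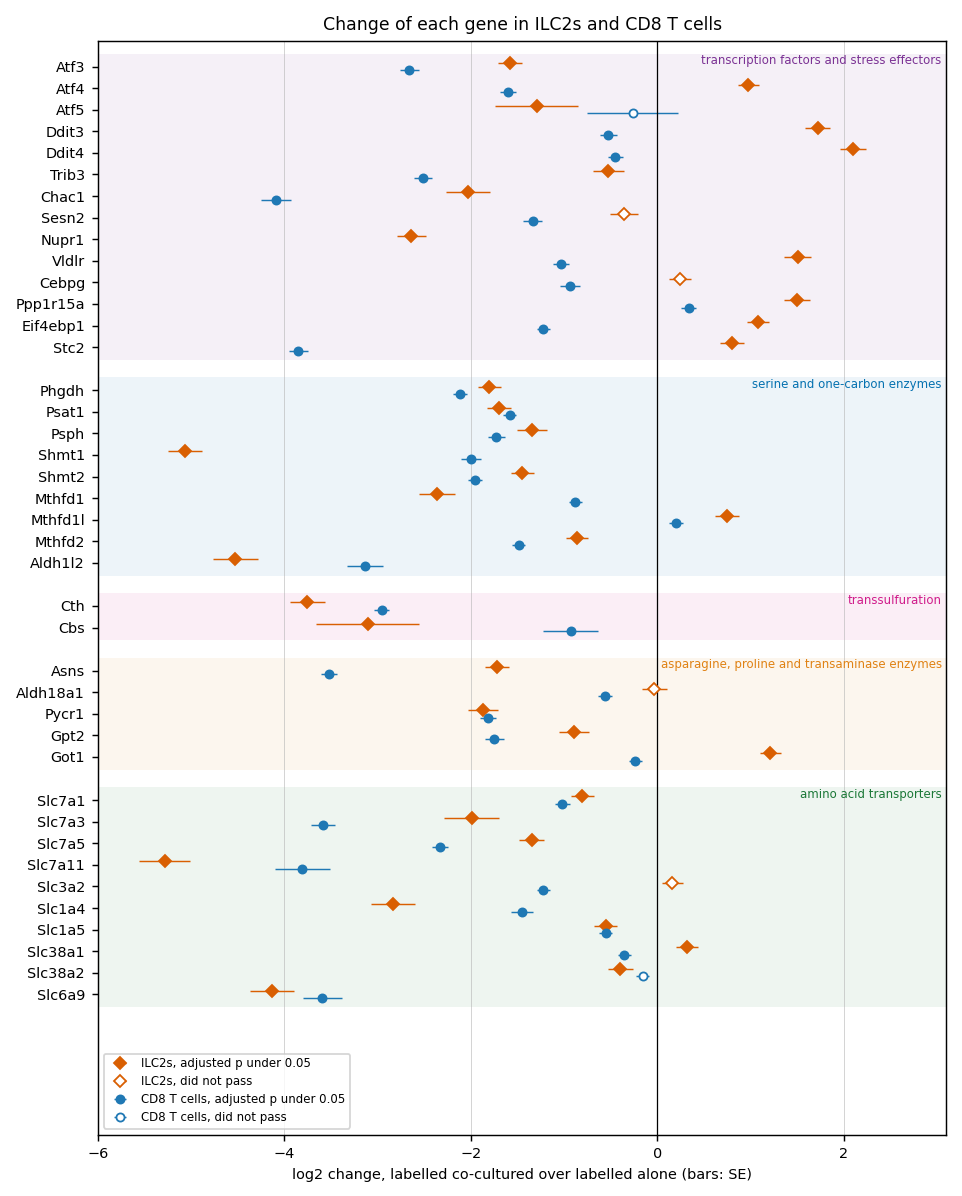
Log2 change of each gene, labelled co-cultured over labelled alone, in ILC2s (diamonds) and CD8 T cells (circles), with bars for the SE and open symbols where the edgeR adjusted p was 0.05 or above. Serine synthesis genes lie to the left in both cell types, and Atf4, Ddit3, Ddit4, Vldlr, Eif4ebp1 and Stc2 lie on opposite sides of 0 under the TMM scaling plotted here.

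**Figure D4:**
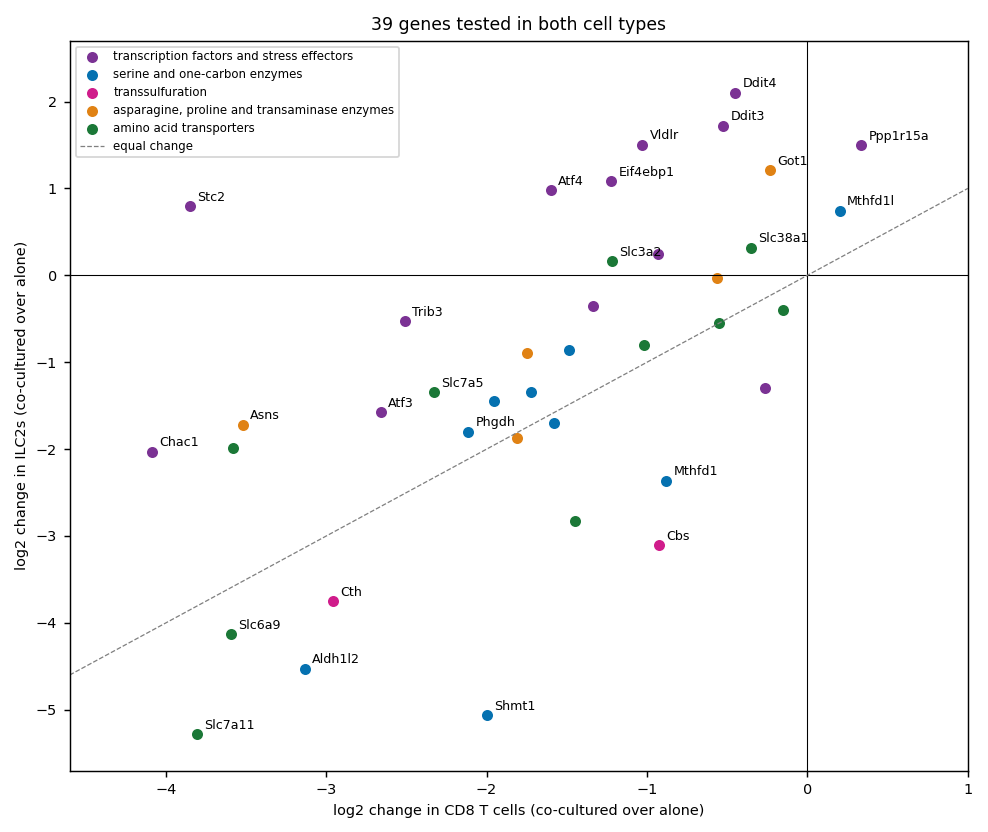
Log2 change in ILC2s (vertical axis) against log2 change in CD8 T cells (horizontal axis) for the 39 genes tested in both, coloured by branch, with the dashed line at equal change. The upper left area holds Stc2, Atf4, Eif4ebp1, Vldlr, Ddit3, Ddit4, Got1 and Slc38a1, which rose in ILC2s under TMM scaling and fell in CD8 T cells, and also Slc3a2 and Cebpg, which did not pass in ILC2s.

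In CD8 T cells 90 genes around the pathway were tested, of which 22 rose, 36 fell and 32 missed the threshold (median -0.11 on the log2 scale), beside 30.2% of all genes that rose and 30.7% that fell. Upstream, of 17 genes for eIF2, its kinases and its exchange factor 3 were higher in co-culture, 7 lower and 7 uncalled. Eif2ak3, the gene of the endoplasmic reticulum stress kinase PERK, had 69.6 and 74.8 CPM co-cultured and 24.3 and 24.7 CPM alone (log2 change 1.48, SE 0.083, edgeR adjusted p = 2e-08), while Eif2s2, the gene of the beta subunit of eIF2, had 164 and 173 CPM co-cultured and 401 and 371 CPM alone (log2 change -1.28, SE 0.072, edgeR adjusted p = 2.2e-08). These 2 changed in opposite directions with separate groups. Of 18 folate and methionine cycle genes 2 were higher in co-culture, 10 lower and 6 uncalled. The largest changes at 10 CPM or more were those of the thymidylate synthase gene Tyms (log2 change -1.92, SE 0.12) and of the cytosolic formyltetrahydrofolate dehydrogenase gene Aldh1l1 (log2 change 1.79, SE 0.15). Of 15 other amino acid enzyme genes 3 were higher in co-culture, 6 lower and 6 uncalled, and by the same rule the branched-chain transaminase gene Bcat1 (log2 change -1.35, SE 0.092) and the serine racemase gene Srr (log2 change 1.01, SE 0.13) changed most.

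The remaining transporter and sensor genes of CD8 T cells held both rises and falls. Of 16 tested, 7 were higher in co-culture, 4 lower and 5 uncalled. The leucine carrier gene Slc43a1 had 37.6 and 34.9 CPM co-cultured and 8.49 and 8.37 CPM alone (log2 change 2.02, SE 0.1, edgeR adjusted p = 8.3e-09), and Slc43a2 of the same family rose by 0.87 (SE 0.089). Of 24 genes of amino acid sensing by mTORC1, 7 were higher in co-culture, 9 lower and 8 uncalled. Sesn1, a sestrin gene related to Sesn2, had 215 and 198 CPM co-cultured and 74.6 and 84 CPM alone (log2 change 1.3, SE 0.082, edgeR adjusted p = 5.1e-08), the reverse of the fall of Sesn2. Castor2, a paralogue of the arginine sensor gene, rose by 1.61 (SE 0.18).

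In ILC2s, of the 92 surrounding genes tested, 24 rose, 44 fell and 24 did not pass (median log2 change -0.31), beside 31.8% of all genes that rose and 34.4% that fell. Of 17 eIF2 genes 4 were higher in co-culture, 9 lower and 4 uncalled, and at 10 CPM or more the exchange factor subunit gene Eif2b3 (log2 change -1.67, SE 0.13) and the GCN2 gene Eif2ak4 (log2 change 1.02, SE 0.15) changed most. GCN2 is the kinase that senses uncharged tRNA, and its gene stood at 32.8 and 29 CPM co-cultured and 19.4 and 16 CPM alone. Folate and methionine cycle genes were mostly lower, 13 of 17, with 1 higher. Tyms had 7.8 and 8.74 CPM co-cultured and 89.3 and 85.7 CPM alone, with separate groups. Of 15 other amino acid enzyme genes 3 were higher in co-culture, 6 lower and 6 uncalled, with falls of 3.98 for Bcat1 and 3.1 for Gclm, a subunit gene of glutathione synthesis. Of 19 other transporter genes 5 were higher in co-culture, 9 lower and 5 uncalled. Slc7a2, a cationic carrier gene, had a log2 change of -5.11 (SE 0.2) and Slc43a2 one of 2.48 (SE 0.13). Of 24 mTORC1 sensing genes 11 were higher in co-culture, 7 lower and 6 uncalled, with Depdc5 (log2 change -2.29, SE 0.16), of the complex that restrains mTORC1, and Castor1 (log2 change 1.44, SE 0.13), the arginine sensor gene. The markers of other cells given above moved with these falls too.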

How the data were processed

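The authors deposited 2 tables of read counts per gene symbol, 1 for each cell type, with 4 libraries each. Per the labels' protocols RNA was obtained with Trizol and amplified with a SMART-Seq v4 kit for low input. Per the submitters' processing notes, StringTie 2.1.3b, SAMtools 1.9, HISAT2 2.1.0 and Trimmomatic 0.38 were used with mm10. Their roles, the annotation and the strand setting were not given in these sources. No deposited count is 0, so a gene with no read in 1 library could be missing from a table. Counts were tested with edgeR 4.0.16 (R 4.3.3; filterByExpr, TMM, quasi-likelihood F test, Benjamini-Hochberg adjustment) on all genes, leaving 2 residual degrees of freedom in each cell type and 4 for the interaction. SE is the size of the log2 change divided by the square root of F. DESeq2 1.42.0, limma-voom (limma 3.58.1), other scalings and filters, a replicate block and left-out libraries were alternatives. Libraries of a group differed beyond counting noise (mean chi-square of a gene 12.5 to 25.9). They were fitted as separate samples, although such spread does not show separate mice or cultures. The fits were tested on simulated data. Full values are given for genes that passed, changed at least 2-fold and had a mean of at least 10 CPM in a group, and for Atf4 and Ddit3. Values of other listed genes are given to complete each branch, outside this rule, and were chosen after they were seen. A gene that the rule would name is not reported here. The genes and lists were chosen with earlier results of these data known. Summaries and plots used Python 3.11.15, pandas 2.3.3 and matplotlib 3.10.9. Gene positions and promoters came from RefSeq (GRCm38.p6, the assembly of mm10), and exon overlaps from GENCODE M21.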

Additional observations from a re-analysis of the deposited data

Results flagged for a closer look

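In all, 30 of the 39 genes tested were singled out because their change with co-culture differed between the cell types in the interaction test, under TMM scaling. Over all 15532 genes tested 53.6% passed, 21% with a higher and 32.6% with a lower change in ILC2s. Each value is the log2 change in ILC2s minus that in CD8 T cells. Among genes that rose in ILC2s and fell in CD8 T cells the difference was 4.49 for Stc2, 2.42 for Atf4, 2.39 for Ddit4, 2.37 for Vldlr, 2.14 for Eif4ebp1, 2.09 for Ddit3, 1.29 for Got1 and 0.51 for Slc38a1 (edgeR adjusted p from 2.8e-12 to 0.0044). Among genes that fell in both, but less in ILC2s, it was 0.92 for Atf3, 1.83 for Trib3, 1.9 for Chac1, 0.47 for Mthfd2, 1.64 for Asns, 0.69 for Gpt2, 1.44 for Slc7a3 and 0.82 for Slc7a5 (edgeR adjusted p from 7e-08 to 0.0073). Genes with other combinations of calls had differences of 0.82 for Sesn2, 1.02 for Cebpg, 1.0 for Ppp1r15a, 0.39 for Mthfd1l, 0.37 for Aldh18a1 and 1.22 for Slc3a2 (edgeR adjusted p from 7.3e-07 to 0.044). A lower change in ILC2s was found for 8 genes, with -3.23 for Shmt1, -1.64 for Mthfd1, -1.55 for Aldh1l2, -0.95 for Cth, -2.34 for Cbs, -1.64 for Slc7a11, -1.54 for Slc1a4 and -0.4 for Slc38a2 (edgeR adjusted p from 3.9e-09 to 0.028). Markers of stroma, macrophages, T cells, epithelium and mast cells and granulocytes were lower in the co-cultured ILC2 libraries than in those labelled alone, and their part in these differences was not tested.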

How the results depend on the processing

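Alternatives were RLE scaling, library totals, other low-count filters, DESeq2, limma-voom, a replicate block, a fit of all 8 libraries and each library left out. Marker scaling was also used for ILC2s and interactions, and the fit of all 8 libraries was the main fit for interactions. Of 467 values of single genes in CD8 T cells, 455 kept their direction and side of the threshold. So did 478 of 517 in ILC2s and 559 of 623 interactions. Without 1 library the count of the listed genes that changed ran from 34 to 37 in CD8 T cells, from 32 to 35 in ILC2s and from 27 to 30 for the interaction, and the count over all genes from 8552 to 9092, 9429 to 11053 and 7097 to 8429. With the replicate number as a replicate block 37, 36 and 31 of the listed genes passed (37, 36 and 30 without it). Same-numbered libraries deviated together with r = 0.01 (CD8 T cells) and 0.086 (ILC2s) across genes, the labels give the numbers no meaning, and the block changed no call within a cell type. Under scaling to ILC2 markers the genes changed at least 2-fold in ILC2s numbered 11005 (6753 under TMM), 4.28% of ILC2 calls were rises (48% under TMM), and these log2 changes turned round: Atf4 -0.471, Cebpg -1.2, Eif4ebp1 -0.365, Stc2 -0.65, Mthfd1l -0.706, Got1 -0.237, Slc3a2 -1.29 and Slc38a1 -1.13. With library totals this share was 38.3%. Other ILC2 signs that turned were those of Aldh18a1 with RLE scaling (0.00318), with the 1 CPM filter (0.00502), with DESeq2 (0.00318) and without co-cultured replicate 2 (-0.225 to 0.112 over left-out libraries), and of Slc3a2 with library totals (-0.0531). In CD8 T cells only Atf5 turned, without CD8 alone replicate 2 and without co-cultured replicate 1 (-0.682 to 0.356 over left-out libraries, 0.0329 for the second). Interactions that turned with marker scaling of the ILC2 libraries were Atf3 -0.384, Sesn2 -0.485, Cebpg -0.285, Ppp1r15a -0.309, Phgdh -1.15, Psph -1.08, Shmt2 -0.955, Mthfd1l -0.924, Mthfd2 -0.843, Aldh18a1 -0.941, Gpt2 -0.616, Got1 -0.0199, Slc7a1 -1.25, Slc7a5 -0.485, Slc3a2 -0.0842 and Slc38a1 -0.798. Those of Phgdh (-0.0111) and Slc7a1 (-0.115) turned with library totals, and Slc7a1 without CD8 co-cultured replicate 1 (-0.0589 to 0.155 over left-out libraries). Interaction calls of Gpt2 and Slc7a11 ended without 1 of the libraries, and those of Mthfd1l, Aldh18a1 and Slc38a2 without any of several left out singly. Calls of Psat1, Shmt2 and Slc6a9 were gained without at least 1. The causes were not tested. Without 1 library its group holds a lone sample, assumed to vary like the others. Atf5, Cbs and Slc7a11 have few reads, which limits their precision.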
